A study of Mus musculus with 20 samples.

Results

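Dppa2 and Dppa4 (developmental pluripotency associated 2 and 4) are neighbouring genes of the early embryo, and their RNA was followed from the mouse egg to the 2-cell embryo. They were chosen by name, as the rows whose gene symbol is Dppa2 or Dppa4, and make up 2 of the 24411 symbols in each of the authors' 5 comparison tables. Poly(A) RNA had been measured in 20 samples, each a batch of 10 to 15 untreated eggs or embryos whose titles give the genotype as WT. The C57BL/6J samples were MII eggs (halted at the second meiotic metaphase), zygotes in G1 (before DNA replication), zygotes in G2 (after it) and 2-cell embryos in G2, with 3 samples each. The samples labelled B6CASTF1, an F1 hybrid, were G1 zygotes (3 samples), G2 zygotes (3 samples) and G2 2-cell embryos (2 samples used here). Which strain was the mother of the hybrid is not stated in the labels. In all groups the eggs had been matured in culture after release from dbcAMP, and the embryos had been made by in vitro fertilization and grown in KSOM medium under 5% oxygen, per the labels' protocols. The series is titled for zygotic genome activation, when the embryo begins to transcribe its own genes, and for Nr5a2, a nuclear receptor.

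DPPA2 and DPPA4 are small nuclear proteins that bind each other and chromatin. Each carries a SAP domain, a short DNA-binding fold. In mouse embryonic stem cells the pair acts upstream of Dux, the homeobox factor that switches on a set of 2-cell-stage genes, and it keeps the promoters of a group of developmental genes open by recruiting COMPASS and Polycomb complexes. Both proteins are known from the oocyte and the early embryo, and mice without either gene can pass through preimplantation development.

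The pair lies head to tail on the plus strand of chromosome 16 (GRCm38, GENCODE M21). Dppa4 (ENSMUSG00000058550.15) spans 48283733 to 48294237 and Dppa2 (ENSMUSG00000072419.5) spans 48303908 to 48319723, so 9670 bases separate them. The longest coding transcript of Dppa2 has 8 exons and 2447 nt, with a coding part of 906 nt and a 3′ UTR of 1012 nt. That of Dppa4 has 7 exons and 1479 nt, with a coding part of 891 nt and a 3′ UTR of 505 nt. The coding parts were identical at 63.6% of 797 aligned bases, and the longest run of bases found in both was GATAAGAAAGG (11 bases, from position 673 of the Dppa2 coding part and 757 of the Dppa4 coding part). No stretch of 31 bases was shared between the transcripts, so reads of that length tell one gene from the other.

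The 3′ UTRs differed in matches to the cytoplasmic polyadenylation element. Through this motif maternal RNAs gain poly(A) tail during egg maturation and after fertilization. The motif was searched as TTTTAT or TTTTAAT on the transcript strand only, since it acts in RNA, and TTTTAT and TTTTAAT cannot begin at the same base. Dppa2 held 3 matches in its 3′ UTR and Dppa4 held 0. They are shown because the cDNA was primed with oligo-dT, which reads only RNA with a tail. Capitals mark the motif, 5′ to 3′, in the 3′ UTR within the last exon of Dppa2.
Dppa2, chr16:48319072-48319099, plus strand: tgctgtactttTTTTATataaatttttt
Dppa2, chr16:48319516-48319543, plus strand: atctggttggtTTTTATatatccaagac
Dppa2, chr16:48319566-48319594, plus strand: ggtcttgagtaTTTTAATttttttaaagt
The last of these began 147 bases from the annotated end and was the only match in the final 150 nt, a window in which 23.3% of 18736 3′ UTRs held the motif. In a window of 505 nt, the whole 3′ UTR of Dppa4, Dppa2 held 2 matches, and 48.2% of 13985 3′ UTRs held at least 1.

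The cleavage signals AATAAA and ATTAAA were in the last 40 nt of neither transcript, while 73.3% of 20659 3′ UTRs held one there. Both signals were also absent from the whole 3′ UTR of Dppa2 (1012 nt) and of Dppa4 (505 nt). The annotated ends are printed because cDNA made from oligo-dT starts at the poly(A) tail of an RNA. Whether the RNA in these samples ended at the annotated ends was not examined.
Dppa2 end, chr16:48319696-48319723, plus strand: gacatgaatacagtgtatttaccagtgt
Dppa4 end, chr16:48294210-48294237, plus strand: gctgttgtaaaatattacactaaatctg
A match is a description of letters, and its absence says only that those letters were not in the window.

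Both transcripts have processed pseudogenes, intronless copies elsewhere in the genome. For Dppa2, 8 pseudogenes shared at least 10 stretches of 31 bases with the transcript, and together they held 33.1% of its 2411 such stretches, most of them in Gm9788 (741). For Dppa4, 3 pseudogenes held 44.3% of 1449 stretches, and Gm14058 alone held 452. None of these pseudogenes had a row in the tables under its GENCODE symbol (0 of 8 and 0 of 3). The labels do not say how reads from the shared stretches were counted, so the values of both genes are uncertain to that extent. The stretches found in no other gene made up 66.2% of the Dppa2 transcript and 55.7% of the Dppa4 transcript.

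Dppa2 RNA was present in the egg, and its mean level was higher at each later stage, although in C57BL/6J only the step to the 2-cell embryo passed the authors' test. The tables hold no value per sample, so the mean normalized count of each stage was worked out from the authors' overall mean and fold changes. In C57BL/6J this level of Dppa2 was 407 in MII eggs (95% interval 296 to 560), 821 in G1 zygotes (599 to 1126), 1413 in G2 zygotes (1031 to 1935) and 10719 in 2-cell embryos (7836 to 14664). In B6CASTF1 it was 818 in G1 zygotes (676 to 989), 2063 in G2 zygotes (1710 to 2488) and 19754 in 2-cell embryos (15728 to 24812). The intervals of the G1 and G2 zygotes of C57BL/6J overlapped and those of the other neighbouring stages did not, which is no test: the step from MII egg to G1 zygote did not pass after adjustment over all genes.

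Dppa4 RNA was low until G1 and then climbed. Its mean level in 2-cell embryos was above that of Dppa2, with overlapping 95% intervals in both strains. In C57BL/6J its level was 44.0 in MII eggs (95% interval 20.1 to 96.3), 37.5 in G1 zygotes (17.1 to 82.2), 410.0 in G2 zygotes (191 to 881) and 16756 in 2-cell embryos (7810 to 35951). In B6CASTF1 it was 54.1 in G1 zygotes (38.7 to 75.7), 284 in G2 zygotes (209 to 385) and 26955 in 2-cell embryos (18717 to 38820). The MII egg and G1 zygote of C57BL/6J could not be told apart, and the intervals of all later neighbours were separate. The 2 strains were normalized separately, so a level in one is not set against a level in the other. In batches of whole embryos, fewer cells with a transcript and less of it per cell cannot be told apart, nor can a change in copy number and a change in the share of copies that carry a tail.

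**Figure D1:**
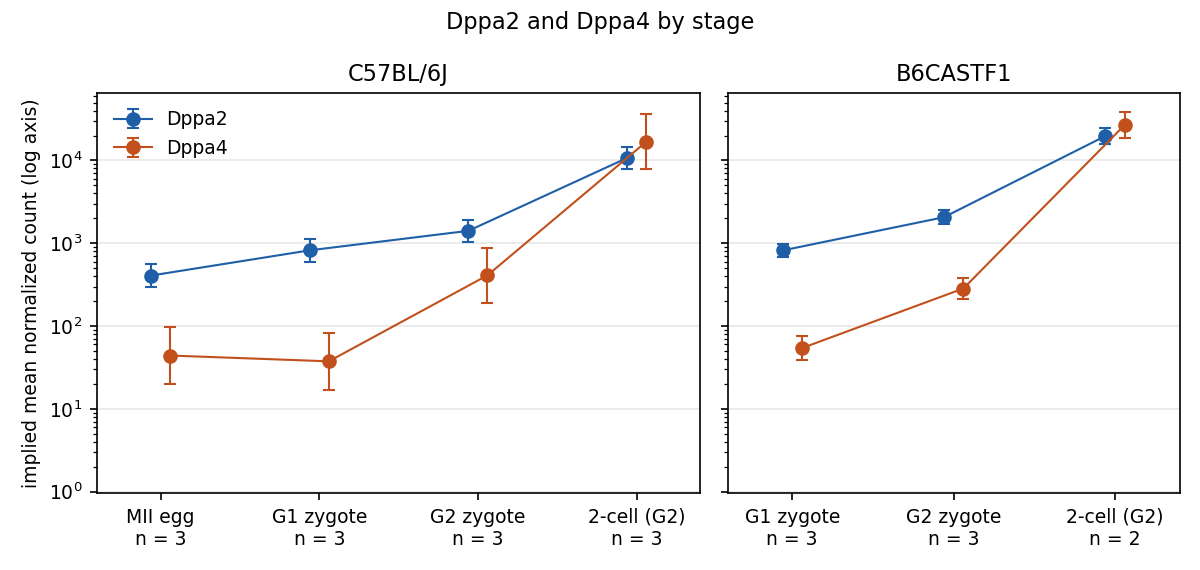
Implied mean normalized count (log10 axis) of Dppa2 and Dppa4 at each stage, with C57BL/6J and B6CASTF1 in separate panels and bars for the 95% interval. Dppa2 starts about an order of magnitude above Dppa4 and both end at 10719 or more in 2-cell embryos.

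The spread between samples that the authors' errors imply differed between the genes. As a coefficient of variation it was 27.6% to 27.7% for Dppa2 and 67.3% to 67.6% for Dppa4 in C57BL/6J. The median over well-measured genes (mean count 100 or more) was 67.9% to 69.8% there. In B6CASTF1 it was 16.4% for Dppa2 and 26.2% to 26.5% for Dppa4, against a median of 29.0% to 29.1%. By this value Dppa2 lay below most well-measured genes in each strain, and Dppa4 lay near the median. The value is the fitted dispersion behind the SE and not a spread observed between samples. The genes it is set against were not matched for level. The stage intervals above use the same value at every stage of a strain. Nothing states that the batches of a group came from different females or days, so the p-values below rest on a spread between batches that may be technical.

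Per kilobase of the longest coding transcript, the order of the pair turned over between the G2 zygote and the 2-cell embryo. The level of Dppa4 per kilobase divided by that of Dppa2 was 0.179 in MII eggs, 0.0755 in G1 zygotes, 0.480 in G2 zygotes and 2.59 in 2-cell embryos of C57BL/6J. In B6CASTF1 it was 0.109 in G1 zygotes, 0.228 in G2 zygotes and 2.26 in 2-cell embryos. On the log2 scale the 95% interval of this ratio lay below 0 in MII eggs and G1 zygotes of C57BL/6J and in both zygote stages of B6CASTF1. It spanned 0 in the G2 zygotes of C57BL/6J (-1.06, interval -2.25 to 0.14) and lay above 0 in 2-cell embryos of both strains (1.37, interval 0.18 to 2.56, and 1.17, interval 0.55 to 1.80). These intervals treat the errors of the genes as independent, which the tables cannot show. Without division by length, Dppa4 over Dppa2 in 2-cell embryos was 1.56 in C57BL/6J and 1.36 in B6CASTF1. There the 95% intervals of the levels of Dppa2 and Dppa4 overlapped in both strains. The 2-cell order of the pair thus rests in part on the transcript lengths used. Shorter coding transcripts are also annotated, of 1948 nt for Dppa2 and 1271 nt for Dppa4. The shorter Dppa2 length would lower the ratio and the shorter Dppa4 length would raise it, and neither was used. In C57BL/6J the 2-cell interval began at only 0.18.

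**Figure D2:**
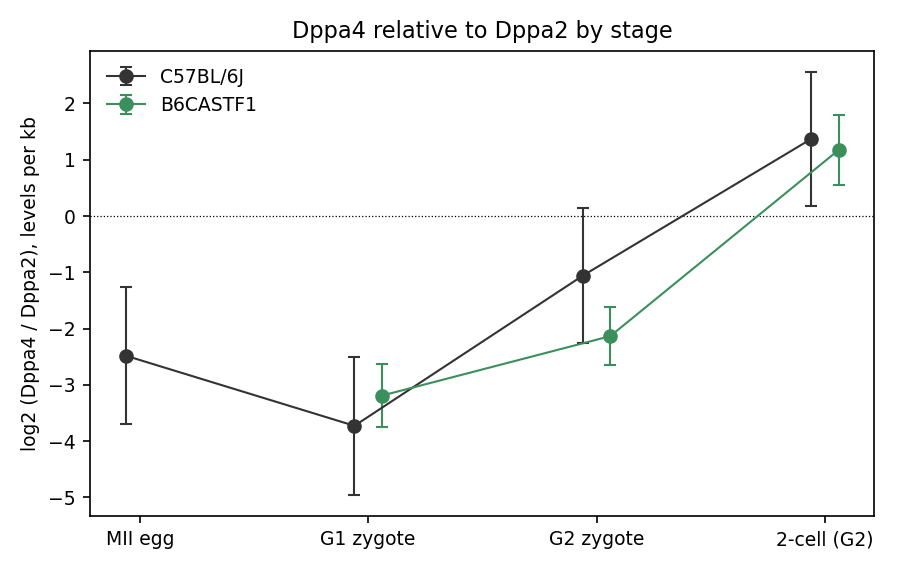
Level of Dppa4 over that of Dppa2, each per kilobase of transcript, on a log2 axis by stage for both strains, with bars for the 95% interval. The ratio is lowest in G1 zygotes and above 0 in the 2-cell embryos of both strains.

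Fertilization was the first step compared, in C57BL/6J alone. Dppa2 was about double the egg level in G1 zygotes without passing the threshold, and Dppa4 showed no detectable difference. In the authors' deposited table the log2 fold change of Dppa2 from MII egg to G1 zygote was 1.01 ± 0.33 (SE), with a p of 0.0022 and a DESeq2 adjusted p of 0.070. That of Dppa4 was -0.23 ± 0.81 in the authors' deposited table, with an adjusted p of 0.9995 and a 95% interval of -1.83 to 1.36. Of 13551 genes tested, 1.62% rose and 1.12% fell at this step, and neither Dppa2 nor Dppa4 was among them. When fold changes were recentred on the median of all genes, the DESeq2-based adjusted p of Dppa2 became 0.038, on the other side of the threshold of 0.05.

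From G1 to G2 of the zygote, Dppa4 rose in both strains and Dppa2 rose in B6CASTF1. In C57BL/6J the authors' deposited table gave Dppa4 a log2 fold change of 3.45 ± 0.81 (DESeq2 adjusted p = 7.7e-04), a 10.9-fold rise, and Dppa2 one of 0.78 ± 0.33 (adjusted p = 0.134). In B6CASTF1 the authors' deposited table gave 2.39 ± 0.34 for Dppa4 (DESeq2 adjusted p = 4.9e-11) and 1.33 ± 0.20 for Dppa2 (adjusted p = 5.3e-10). The share of all tested genes that rose was 5.01% in C57BL/6J and 9.63% in B6CASTF1, and 2.87% and 9.63% fell. Among the well-measured genes Dppa4 ranked above 97.4% in C57BL/6J and 97.9% in B6CASTF1 by fold change, and Dppa2 above 73.2% and 91.0%. The C57BL/6J call of Dppa4 did not pass with Bonferroni adjustment (adjusted p = 0.301) or with the SE raised 1.5 times (adjusted p = 0.177).

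From the G2 zygote to the 2-cell embryo, both genes rose in both strains, Dppa4 by the greater fold. In C57BL/6J the authors' deposited table gave log2 fold changes of 2.92 ± 0.33 for Dppa2 (DESeq2 adjusted p = 1.1e-17) and 5.35 ± 0.80 for Dppa4 (adjusted p = 2.1e-10). In B6CASTF1 the authors' deposited table gave 3.26 ± 0.22 for Dppa2 (DESeq2 adjusted p = 1.2e-49) and 6.57 ± 0.35 for Dppa4 (adjusted p = 9.4e-78). Many genes moved at this step: 25.0% of those tested rose and 25.3% fell in C57BL/6J, and 33.1% rose and 26.8% fell in B6CASTF1. A rise here was therefore common, and the size is what set Dppa4 apart from the median well-measured gene, which changed by 0.20 and 0.22. By fold change Dppa4 ranked above 91.9% and 94.3% of the well-measured genes, and Dppa2 above 80.6% and 80.3%.

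Summed over several steps, the change of Dppa2 in C57BL/6J lay further from 0 than in either step up to the G2 zygote. From MII egg to G2 zygote, a span added after the data were examined, Dppa2 came to a level 3.47-fold higher (log2 1.79, 95% interval 1.15 to 2.44, or 0.88 to 2.71 with the largest SE the steps allow). Dppa4 was 9.31-fold higher over the same span (log2 3.22, interval 1.64 to 4.80, or 0.97 to 5.47). From MII egg to 2-cell embryo, Dppa2 was 26.3-fold higher (log2 4.72, interval 4.07 to 5.36) and Dppa4 381-fold (log2 8.57, interval 7.0 to 10.1). From G1 zygote to 2-cell embryo, Dppa4 was 447-fold higher in C57BL/6J and 498-fold higher in B6CASTF1, and Dppa2 13.1-fold and 24.2-fold. No adjusted p was given to these sums.

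The strains were compared by the difference of their fold changes, B6CASTF1 minus C57BL/6J, divided by the combined SE, and a normal p was adjusted by Benjamini-Hochberg over all genes tested in both. At G2 against G1 zygotes the difference was 0.55 for Dppa2 (95% interval -0.20 to 1.30, adjusted p from the authors' DESeq2 SE = 0.784) and -1.06 for Dppa4 (-2.77 to 0.65, adjusted p = 0.887). At the 2-cell step it was 0.34 for Dppa2 (-0.43 to 1.11, adjusted p from the DESeq2 SE = 0.647) and 1.22 for Dppa4 (-0.49 to 2.92, adjusted p = 0.389). Of the genes tested, 1.92% and 16.6% differed between strains at these steps, and neither Dppa2 nor Dppa4 did. The intervals for Dppa4 leave room for differences of more than 2 on the log2 scale in one direction or the other. Hence Dppa2, called at G2 against G1 in B6CASTF1 and not in C57BL/6J, is not shown to differ between them.

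Over the whole span from G1 zygote to 2-cell embryo, another comparison chosen with the values in view, 13.9% of genes differed between the strains. Here the difference of Dppa2 was 0.89 (95% interval 0.12 to 1.66) and did not pass, with an adjusted p of 0.120 from the authors' DESeq2 SE. That of Dppa4 was 0.16 (-1.58 to 1.89, adjusted p from the DESeq2 SE = 0.956). The strains also carry library numbers of separate series, so strain and library series cannot be told apart.

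The genes whose 5 fold changes lay nearest to each of the pair, by Euclidean distance on the log2 scale over the 5 comparisons and 8094 genes, were different genes. Nearest to Dppa2 were Rars (arginyl-tRNA synthetase, distance 0.375), Dnph1 (0.511), Naa38 (0.617), Mrpl46 (a mitochondrial ribosomal protein, 0.696) and M6pr (a mannose-6-phosphate receptor, 0.699). In the authors' deposited table Rars had log2 fold changes of 0.73, 1.0 and 3.02 in C57BL/6J and 1.35 and 3.17 in B6CASTF1, step by step close to Dppa2. Nearest to Dppa4 were AU015228 (1.44), Ccdc126 (1.74), Ppcs (an enzyme of coenzyme A synthesis, 1.78), Ovol2 (a zinc finger factor, 1.85) and Purb (1.91). Dppa4 was at a distance of 5.16 from Dppa2, which put it at rank 3491 among the genes near Dppa2 and Dppa2 at rank 534 among those near Dppa4. The 5 comparisons share samples within a strain, so these distances are a description.

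The next protein-coding genes on the chromosome did not share one pattern with the pair. Nectin3, a cell adhesion gene 1785208 bases before Dppa4 and listed under its older symbol Pvrl3, fell at the 2-cell step in the authors' deposited table by 4.29 ± 0.61 in C57BL/6J (DESeq2 adjusted p = 1.8e-11) and by 3.56 ± 0.19 in B6CASTF1 (adjusted p = 1.0e-79). Gm5485, a predicted gene 79730 bases after Dppa2 on the minus strand, rose from an implied level of 0.377 to 156 at the same step in C57BL/6J. Its log2 fold change in the authors' deposited table was 8.70 ± 3.75 (DESeq2 adjusted p = 0.042), and it was not tested in B6CASTF1.

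Other Dppa genes, which share the name and not the family, are given for comparison. Dppa5a, an RNA-binding gene of pluripotent cells, fell from MII egg to G1 zygote in the authors' deposited table (-1.01 ± 0.27, DESeq2 adjusted p = 0.0086) and rose at the 2-cell step by 3.62 ± 0.27 in C57BL/6J and 5.57 ± 0.29 in B6CASTF1. Dppa3, the maternal factor also called Stella, rose at G2 in the authors' deposited table of C57BL/6J (0.79 ± 0.16, DESeq2 adjusted p = 2.5e-05), where Dppa5a rose too (0.83 ± 0.27, adjusted p = 0.029), and not in that of B6CASTF1 (-0.02 ± 0.14, adjusted p = 0.97). Its 2-cell log2 fold change in the authors' deposited table was -0.61 ± 0.16 in C57BL/6J (DESeq2 adjusted p = 3.5e-04) and 0.63 ± 0.16 in B6CASTF1 (adjusted p = 2.4e-04). Of the 3 and 4 tested genes of this list, 2 rose in C57BL/6J and 1 in B6CASTF1 at G2, and 1 rose and 1 fell in C57BL/6J and 2 rose and 1 fell in B6CASTF1 at the 2-cell step. Over all tested genes, 5.01% rose in C57BL/6J and 9.63% in B6CASTF1 at G2. At the 2-cell step 25.0% rose and 25.3% fell in C57BL/6J, and 33.1% rose and 26.8% fell in B6CASTF1. With so few genes, the counts of this list are a description only.

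Dux, downstream of the pair in stem cells, had its highest mean level among the sampled stages in G2 zygotes, and the pair in 2-cell embryos. No stage between G2 zygotes and G2 2-cell embryos was sampled, so the order of the peaks cannot be read. In B6CASTF1 the implied level of Dux was 2.08 in G1 zygotes, 147 in G2 zygotes and 16.0 in 2-cell embryos. The rise passed the test in the authors' deposited table (6.15 ± 1.51, DESeq2 adjusted p = 6.2e-04), while the later change of -3.20 ± 1.57 did not (adjusted p = 0.066). In C57BL/6J the level of Dux was 28.6 in G2 zygotes and below 1 at every other stage. Neither this rise nor the later change passed (adjusted p from the authors' deposited DESeq2 table of 0.31 and 0.22). Zscan4d, a 2-cell gene that Dux turns on, had implied levels of 196, 676 and 2523 in B6CASTF1, and both of its steps passed in the authors' deposited table (1.79 ± 0.48 and 1.90 ± 0.54). In C57BL/6J its level went from 92.3 in G2 zygotes to 580.0 in 2-cell embryos (2.65 ± 1.26, adjusted p from the authors' deposited DESeq2 table = 0.068). Dux and Zscan4d belong to multicopy families whose reads may be split between copies.

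The lists that follow are read against all tested genes. At G2 zygotes against G1 zygotes 5.01% of all genes rose and 2.87% fell in C57BL/6J, and 9.63% rose and 9.63% fell in B6CASTF1. Among 2-cell embryos against G2 zygotes these shares were 25.0% and 25.3% in C57BL/6J and 33.1% and 26.8% in B6CASTF1, with median log2 fold changes of 0.17 and 0.55. No difference between a list and the other genes was tested.

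In the list of Dux and its 2-cell targets, most of the genes called were rises. At G2 against G1 zygotes, 1 of 23 tested members rose in C57BL/6J (5.01% of all genes) and 8 of 25 in B6CASTF1 (9.63% of all genes) by the authors' DESeq2 calls, and 0 fell, with 1 and 2 lower at an unadjusted p under 0.05. In 2-cell embryos of C57BL/6J 14 of 23 rose, beside 25.0% of all genes, and 0 fell (0 lower unadjusted), with a median log2 fold change of 3.09 against 0.17 over all tested genes, and 21 of 25 rose, beside 33.1% of all genes, and 1 fell in B6CASTF1 (median 3.92 against 0.55). Arg2, an arginase, rose as early as the G1 zygote in the authors' deposited table (2.83 ± 0.53, DESeq2 adjusted p = 1.9e-05). Gm6763 rose at G2 in both strains in the authors' deposited table, by 5.06 ± 1.25 and 3.88 ± 0.68. Sp110, a nuclear body gene, and Tdpoz5 rose at the 2-cell step in the authors' deposited table of C57BL/6J, by 2.09 ± 0.23 and 8.37 ± 0.87, and Tcstv1 was the member that fell in B6CASTF1 (-0.48 ± 0.20).

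Factors reported to raise Dux, the group to which the pair belongs by role, had more calls at the 2-cell step than before it, as did all genes. From MII egg to G1 zygote 0 of 10 passed in either direction by the authors' DESeq2 calls, and 0 had an unadjusted p under 0.05. At G2 against G1, 0 rose and 1 fell in C57BL/6J (1 higher and 3 lower unadjusted), while 1 rose and 3 fell in B6CASTF1. Then 6 rose and 1 fell at the 2-cell step in C57BL/6J (median 1.98 against 0.17), and 7 rose and 1 fell in B6CASTF1 (median 2.25 against 0.55), while 25.0% and 33.1% of all genes rose. Obox3, an embryonic homeobox gene, rose in the authors' deposited tables by 6.71 ± 0.58 and 8.73 ± 0.21, and Obox5, its maternal relative, fell by 3.23 ± 0.33 and 3.09 ± 0.17. Smarca5, a chromatin remodeller, rose by 1.62 ± 0.30 in the authors' deposited table of C57BL/6J, and Gadd45b, a stress-response gene, by 7.48 ± 0.42 in that of B6CASTF1. Nelfb, a subunit of the complex that pauses RNA polymerase, fell at G2 in both of the authors' deposited tables (-8.15 ± 2.76 and -2.88 ± 0.61). In C57BL/6J its implied level went from 55.1 in G1 zygotes to 0.193 in G2 zygotes. The size of that fall is therefore uncertain, and the shrunken log2 fold change was -5.10. In B6CASTF1 at the same step Top2a, a topoisomerase, rose by 0.68 ± 0.21 and Usp7, a deubiquitinase, fell by 0.46 ± 0.13 in the authors' deposited table.

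SUMO conjugation attaches a small protein that restrains DPPA2, through the ligase PIAS4, in stem cells. Pias4 itself did not pass the test at any of the 5 steps: in the authors' deposited tables its log2 fold changes were -0.51, -1.52 and -1.45 in C57BL/6J, with SEs near 1.9, and -0.84 ± 0.45 and 0.40 ± 0.50 in B6CASTF1. Of the SUMO pathway, 0 of 15 tested genes passed DESeq2 at the G1 and G2 steps of C57BL/6J, with 1 lower at an unadjusted p under 0.05 in each, and 1 of 16 rose and 2 fell at G2 in B6CASTF1. Of the same list 2 rose and 3 fell at the 2-cell step in C57BL/6J (median -0.05 against 0.17), and 9 rose and 4 fell in B6CASTF1 (median 0.83 against 0.55). Over all genes 25.0% rose and 25.3% fell, and 33.1% rose and 26.8% fell. Sumo2, the modifier itself, fell at G2 (-1.93 ± 0.16) and rose at the 2-cell step (2.32 ± 0.18) in the authors' deposited tables of B6CASTF1. Pias1, a SUMO ligase, fell at the 2-cell step in both strains in the authors' deposited tables (-2.28 ± 0.39 and -1.99 ± 0.31).

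Repressors of Dux and of the 2-cell-like state were called in both directions, as genes were in general. In 2-cell embryos 6 of 17 rose and 5 fell in C57BL/6J (median 0.17, as over all genes), beside 25.0% and 25.3% of all genes. In B6CASTF1 8 rose and 8 fell (median -0.45 against 0.55), beside 33.1% and 26.8%. Before that step, 1 rose from MII egg to G1 zygote (Zfp57, an imprint-guarding zinc finger gene, 1.57 ± 0.31 in the authors' deposited table), 1 fell at G2 in C57BL/6J, and 3 rose and 4 fell at G2 in B6CASTF1. Trim28, the co-repressor of many zinc finger proteins, fell at G2 and rose at the 2-cell step in both strains in the authors' deposited tables: -1.50 ± 0.51 then 1.53 ± 0.51 in C57BL/6J, and -2.36 ± 0.30 then 3.46 ± 0.33 in B6CASTF1. Dnmt1, the maintenance DNA methyltransferase, fell at the 2-cell step by 2.81 ± 0.37 and 4.27 ± 0.16 in the authors' deposited tables, and its partner Uhrf1 fell by 4.03 ± 0.20 in B6CASTF1.

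COMPASS and Polycomb genes, whose complexes the pair recruits in stem cells, were called at the 2-cell step about as often as all genes or less. Of 20 tested genes 0 passed DESeq2 from MII egg to G1 zygote (1 higher at an unadjusted p under 0.05), and 0 rose and 1 fell at G2 in C57BL/6J (1 higher and 2 lower unadjusted). At G2 in B6CASTF1 4 of 19 fell and 0 rose (7 lower and 2 higher unadjusted), beside 9.63% and 9.63% of all genes. Later, at the 2-cell step, 4 of 20 rose and 3 fell in C57BL/6J, and 5 of 20 rose and 6 fell in B6CASTF1, with medians of -0.15 and 0.03 against 0.17 and 0.55. The shares over all genes were 25.0% and 25.3%, and 33.1% and 26.8%. Smarca4, a SWI/SNF subunit and of neither complex, was on the list and among the genes that rose in both strains. Ash2l, a COMPASS core subunit, rose in the authors' deposited tables by 1.70 ± 0.46 and 2.11 ± 0.19, while Dpy30, another one, fell by 1.68 ± 0.27 and 1.54 ± 0.18. Eed, a Polycomb subunit, fell by 1.96 ± 0.31 in the authors' deposited table of C57BL/6J, and the methyltransferase Ezh2 fell by 1.38 ± 0.13 in that of B6CASTF1.

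Other SAP-domain genes are listed because they share the fold with the pair. At the G1 and G2 steps of C57BL/6J 0 of 18 tested passed DESeq2, and 0 and 1 had an unadjusted p under 0.05. At G2 in B6CASTF1 3 of 19 fell and 0 rose (4 lower and 1 higher unadjusted). Of all genes 9.63% fell and 9.63% rose there, so these few calls are a description only. By the 2-cell embryo 4 of 18 rose and 3 fell in C57BL/6J (median -0.20 against 0.17), near the 25.0% and 25.3% of all genes. In B6CASTF1 9 of 19 rose and 4 fell (median 0.48 against 0.55), beside 33.1% and 26.8%. Sde2, a genome stability gene, rose by 1.80 ± 0.30 and 3.20 ± 0.16 and Ccar1, a transcription coactivator, by 2.45 ± 0.54 and 2.10 ± 0.15 in the authors' deposited tables. Rad18, a ubiquitin ligase of DNA repair, fell by 2.11 ± 0.26 in the authors' deposited table of B6CASTF1.

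Candidate genome activation factors had most of their rises at the 2-cell step and few at G2. Genes in general also rose more often at the 2-cell step. Before the 2-cell stage, 1 fell from MII egg to G1 zygote and 1 rose at G2 in C57BL/6J (of 14 tested), and 2 of 15 fell and 0 rose at G2 in B6CASTF1 by the authors' DESeq2 calls (3 lower and 0 higher at an unadjusted p under 0.05). Over all tested genes, 1.12% fell from MII egg to G1 zygote. At G2 5.01% rose and 2.87% fell in C57BL/6J, and 9.63% rose and 9.63% fell in B6CASTF1. With so few genes, these early counts are a description only. In 2-cell embryos against G2 zygotes 9 of 14 rose and 2 fell in C57BL/6J (median 2.09 against 0.17), and 10 of 15 rose and 2 fell in B6CASTF1 (median 3.47 against 0.55), while 25.0% and 33.1% of all genes rose. Obox6, a homeobox gene, rose by 10.88 ± 0.66 and 10.25 ± 0.29 in the authors' deposited tables, and Gabpa, an ETS factor, by 10.10 ± 0.27 in that of B6CASTF1. Nanog, a pluripotency factor, was the gene that rose at G2 in the authors' deposited table of C57BL/6J (1.71 ± 0.46, DESeq2 adjusted p = 0.0048), and Esrrb, an orphan nuclear receptor, fell at the 2-cell step by 5.72 ± 0.98 and 3.39 ± 0.67.

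**Figure D3:**
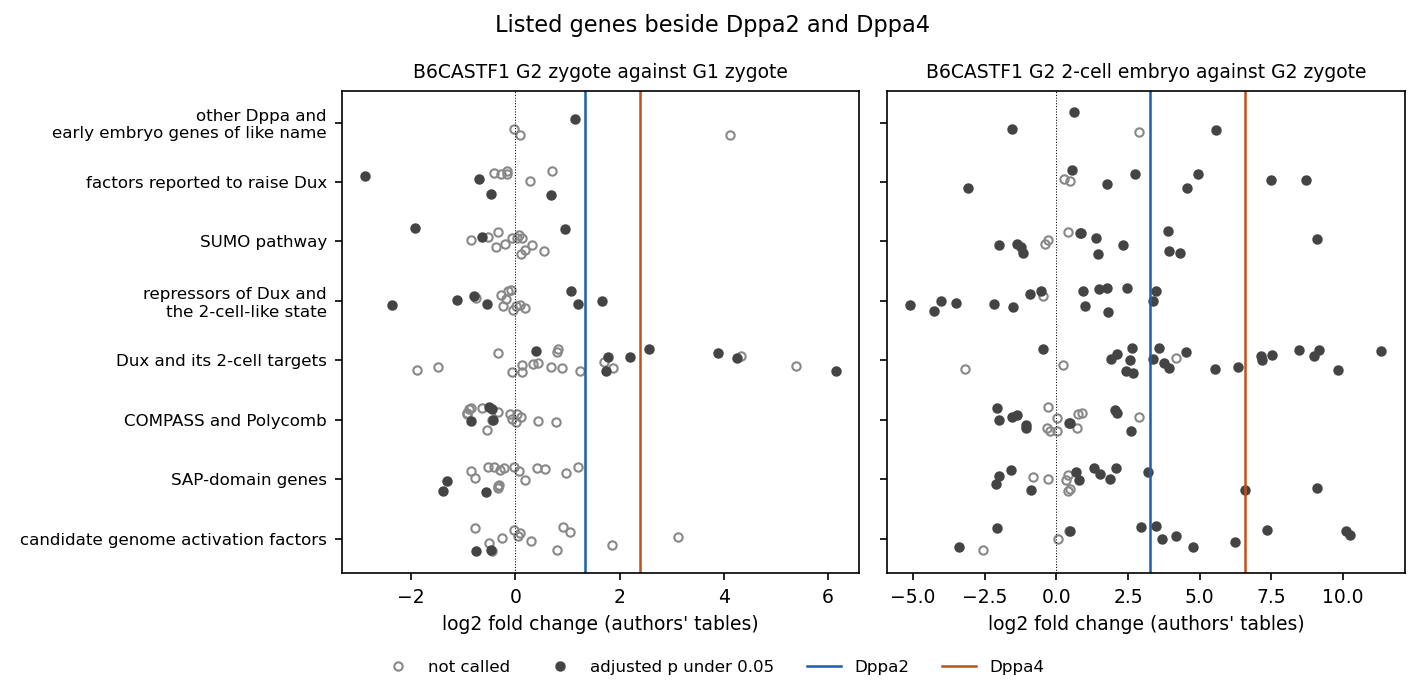
Log2 fold change in B6CASTF1 of each tested gene (points, filled where the adjusted p was under 0.05) in 8 lists, at G2 against G1 zygotes and at 2-cell embryos against G2 zygotes, with lines for Dppa2 and Dppa4. The Dux target list has 8 and 21 genes that rose, and at the 2-cell step of the other lists genes that fell stand beside genes that rose.

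Markers of the labelled cells and of cells that could be carried along were read on the same scale. All 15 oocyte markers were at a level of at least 1 in every group, and their summed level went from 527856 in MII eggs through 270259 and 146573 to 26620 in 2-cell embryos of C57BL/6J, and from 519834 through 174097 to 31981 in B6CASTF1. Single markers went the other way: Zp3 rose at the 2-cell step in both strains, and Ooep, Nobox and Nlrp5 rose at G2 in B6CASTF1. Of 10 cumulus and granulosa markers, 3 to 7 reached a level of 1, and they summed to 302 to 1609 over the C57BL/6J stages and 1429 to 2572 over those of B6CASTF1. Most of each sum was Cyp19a1 in eggs and zygotes and Amhr2 in 2-cell embryos. Amh was listed at 0 in both strains, and Inha and Inhba were listed at 0 in C57BL/6J. In B6CASTF1 Inha was at 284, Tnfaip6 at 65.3, Ptgs2 at 43.5 and Inhba at 31.3 in G1 zygotes, and Tnfaip6 at 299 and Ptgs2 at 203 in 2-cell embryos. Of 10 sperm and testis markers, 3 to 5 reached a level of 1, with sums of 88.7 to 217 and 27.0 to 249. The part of these markers in the changes of the pair was not tested.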

How the data were processed

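Poly(A) RNA from batches of 10 to 15 eggs or embryos was amplified by Smart-seq2 with oligo-dT, per the labels' protocols. The submitters' processing notes name the build mm10 and the tools DESeq2, kallisto, TopHat, bcl2fastq and Picard, with no roles. The authors made their 5 comparison tables with DESeq2 1.18.1, as the names of the tables record. Each deposited table holds, per the file headers, the gene's mean normalized count (a signal averaged over the strain's samples). Next to it stand a log2 fold change as deposited, its SE and a shrunken version. The deposited Wald score comes with its p-value, raw and adjusted. Depth per sample is unknown, so the authors' SE give the precision.

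Genes past the authors' adjusted p of 0.05 were taken as risen or fallen. Stage levels were solved from the mean and the fold changes, weighted by samples per stage. The per-gene dispersion was solved from the authors' SE, and its square root is the coefficient of variation. Over 1460 genes of B6CASTF1, the dispersions of the 2 comparisons had a median ratio of 0.999 with 2 two-cell samples and 1.25 with 3. Intervals are normal and at 95%. Genes enter ranks with a mean count of at least 100. Lists are given as counts and medians, with no list test. The strain test was tested on simulated data: of differences of 2 and 4 on the log2 scale it found 21% and 37% at G2 against G1 (12517 genes) and 18% and 33% at the 2-cell step (12573 genes). The simulation changed 200 genes drawn from all tested genes, while 240 and 2090 were called in the data. Its shares are therefore not the power for the pair. The SE of the strain difference was 0.38 and 0.39 for Dppa2 and 0.87 at both steps for Dppa4.

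Dppa2 and Dppa4, the 8 gene lists, the 3 marker lists and the tests were chosen with earlier results of these data known. Named genes were Dux, Zscan4d, Pias4, up to 2 members per list and direction with the smallest adjusted p, the 5 nearest genes and the coding neighbours; Dppa3 and Dppa5a come from their list by the same rule, and 1 gene the rule would name is not reported here. Of the table's symbols, 23376 of 24411 were found in GENCODE M21, from which transcripts and sequences came. Alternatives were other thresholds, Bonferroni, minimum counts, recentring, shrunken fold changes, a raised SE and equal weights of stages. The software was scipy 1.17.1, numpy 2.4.6, pandas 2.3.3 and matplotlib 3.10.9 under Python 3.11.15.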

Additional observations from a re-analysis of the deposited data

How the results depend on the processing

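Over the alternatives run on the tests of Dppa2 and Dppa4, 69 values kept their direction and their side of the threshold, 1 crossed to significance and 2 lost it. Part of the 69 was fixed in advance. A result that was not called stays so under a stricter threshold, Bonferroni or a raised SE. The 8 changes summed over steps have no threshold, and the wider SE alters their intervals only. Dppa2 from MII egg to G1 zygote had an adjusted p of 0.038 when the authors' DESeq2 fold changes were recentred on the median. Dppa4 at G2 against G1 zygotes of C57BL/6J had an adjusted p of 0.301 with Bonferroni over the DESeq2 p-values and 0.177 with the SE raised 1.5 times; both alternatives are stricter by construction. Counts over all genes moved by more than 1.5 times at a threshold of 0.01, to 100 that fell from MII egg to G1 zygote and to 405 that rose and 217 that fell at G2 in C57BL/6J, and with a minimum absolute log2 fold change of 1, to 732 that fell at G2 in B6CASTF1. With equal weights for stages, the B6CASTF1 levels became 652, 1646 and 15758 for Dppa2, and 214 and 20342 for Dppa4 in G2 zygotes and 2-cell embryos; folds between stages do not depend on the weights. With a minimum mean count of 1000, 1 of the 5 nearest genes was kept for each of the pair, and with shrunken fold changes 2 of 5 for Dppa4. No paired analysis was possible because the 5 tables give comparisons and no sample's own values, and for the same reason no sample could be left out in turn. Depth limits per sample could not be read.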
